A study of Homo sapiens with 97 samples.

Results

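RNA tagged by a cytosolic peroxidase was compared between HEK293T cells given cycloheximide and HEK293T cells given puromycin, gene by gene, in 8 of the 97 samples of an APEX-seq atlas. HEK293T is a human embryonic kidney line. The cells stably carried APEX2, an engineered peroxidase, fused to a nuclear export signal (NES), which keeps it in the cytosol. After 30 min in biotin-phenol, a pulse of 1 min with 1 mM hydrogen peroxide makes APEX2 turn biotin-phenol into short-lived radicals that attach biotin to nearby RNA, and the biotinylated RNA is then pulled out and its poly(A) RNA sequenced. The 4 groups were labelled cycloheximide, labelled puromycin, and an unlabelled background group for each drug, handled the same way without peroxide. Each group had 2 libraries, which the series design calls biological replicates. All 4 groups carried the same construct, and no library without a drug enters the comparison, so a difference between the drugs cannot be assigned to one of them. Doses and times of the drugs are not given in the sources used here.

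Both drugs stop protein synthesis, but they leave the messenger RNA in different states. Cycloheximide blocks the movement of the ribosome along the mRNA, so ribosomes and their unfinished chains stay on it. Puromycin enters the growing chain and releases it, so ribosomes come off. mRNAs for secreted and membrane proteins are translated on the endoplasmic reticulum (ER), and some mRNAs for mitochondrial proteins are translated at the outer mitochondrial membrane (OMM). In both cases the unfinished chain can tie the mRNA to the membrane.

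The table held 60675 gene identifiers, of which 21441 passed a filter on low counts and were tested. Of these, 11728 averaged at least 5 CPM (the usual library-scaled read count, here with edgeR's TMM factors) over the 8 libraries. The 8 libraries held between 22749527 and 41084357 counts. Labelled replicates were alike (Pearson's r of log2 CPM 0.98 for cycloheximide and 0.99 for puromycin, across genes), while the unlabelled pairs were further apart (0.79 and 0.82). RNAs of all genes of the mitochondrial genome, not of the mRNAs alone, made up 0.70% to 1.09% of counts in the labelled libraries and 3.81% to 5.30% in the unlabelled ones. All 10 markers of HEK293T cells that were looked up (vimentin and neurofilaments among them) had a median above 1 CPM. Of 10 markers of other cell types, only COL1A1, a collagen gene, did, with a median of 21.8 CPM.

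In the labelled libraries, 13 genes were higher and 121 lower in cycloheximide than in puromycin (edgeR's quasi-likelihood test, adjusted p under 0.05), which is 0.625% of the genes tested. All 134 had a mean of at least 5 CPM, where 0.111% of genes were higher and 1.03% lower. In none of the 134 did the libraries of the drugs overlap, which was also true of 7637 of the 11728 genes of at least 5 CPM. MIF, which codes for a secreted inflammatory cytokine, stood at 20.3 and 19.2 CPM in cycloheximide and 106 and 119 CPM in puromycin. RPS15, a protein of the small ribosomal subunit, stood at 33.2 and 32.8 CPM in cycloheximide and 131 and 134 CPM in puromycin. In both genes the drugs did not overlap and the 2 libraries of a drug lay close together. The log2 difference, cycloheximide minus puromycin, was -2.52 ± 0.32 (SE, adjusted p = 0.000811) for MIF and -2.01 ± 0.19 (adjusted p = 4.36e-05) for RPS15. MZT2B and MZT2A, near-identical genes for a component of the microtubule-nucleating complex whose reads may be split between them, differed by -2.34 ± 0.41 (adjusted p = 0.0103) and -1.89 ± 0.33 (adjusted p = 0.0103). The others among the 15 lowest genes with a gene symbol were ATP5F1D, SCAND1, GRN, ZNF593, MRPL41, TEDC1, DNPH1, AURKAIP1, LMF2, NDUFAF3 and LRPAP1, with log2 differences between -1.97 (ATP5F1D) and -1.47 (LRPAP1).

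Among the 13 mRNAs that were higher in cycloheximide the log2 difference did not pass 1.24. SOX4, a transcription factor of embryonic progenitors, stood at 236 and 333 CPM in cycloheximide and 115 and 126 CPM in puromycin. RDX, radixin, which links actin to the cell membrane, stood at 415 and 404 CPM against 222 and 235 CPM. EIF4A2, an RNA helicase of translation initiation, stood at 197 and 200 CPM against 111 and 112 CPM. None of the 3 overlapped between the drugs, and their log2 differences were 1.24 ± 0.23 (adjusted p = 0.0149), 0.84 ± 0.17 (adjusted p = 0.0259) and 0.83 ± 0.16 (adjusted p = 0.0201). The others were PLS3 (0.77), SPCS3 (0.76), the cytosolic chaperone HSP90AA1 (0.74), RPRD1A (0.71), ACTR2 (0.69), CUL4B (0.68), PTP4A1 (0.65), the import and export receptors IPO7 (0.64) and XPO1 (0.61), and IARS (0.61), as log2 differences.

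**Figure D1:**
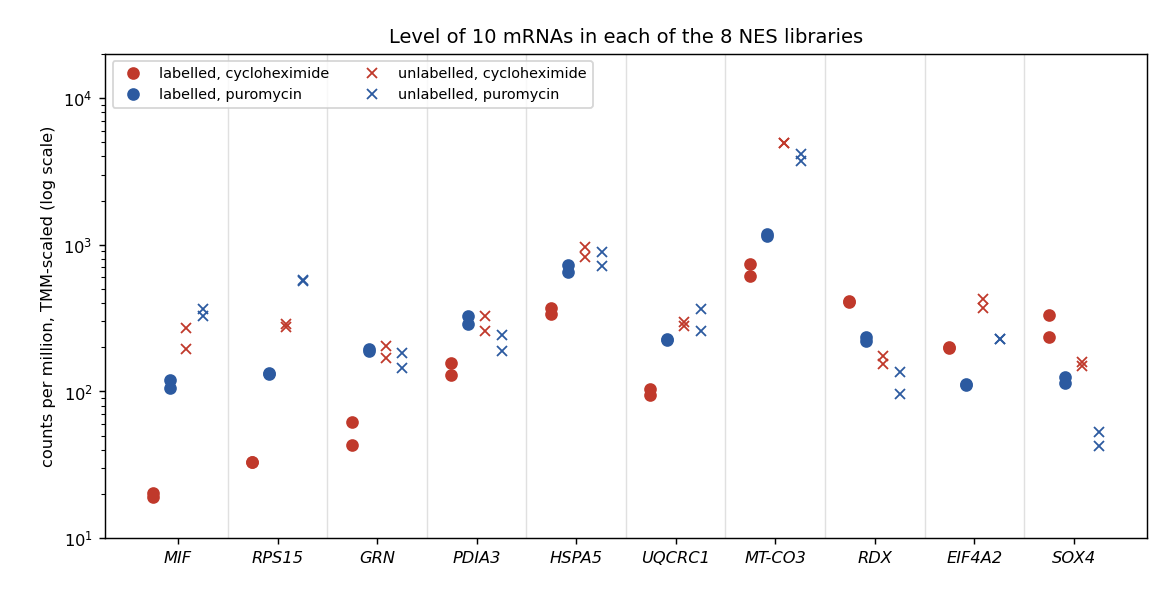
CPM (log axis) of 10 mRNAs in the 8 NES libraries, with 1 symbol per library, filled circles for labelled and crosses for unlabelled RNA. The labelled cycloheximide circles lie below the labelled puromycin circles for the first 7 genes and above them for RDX, EIF4A2 and SOX4.

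**Figure D2:**
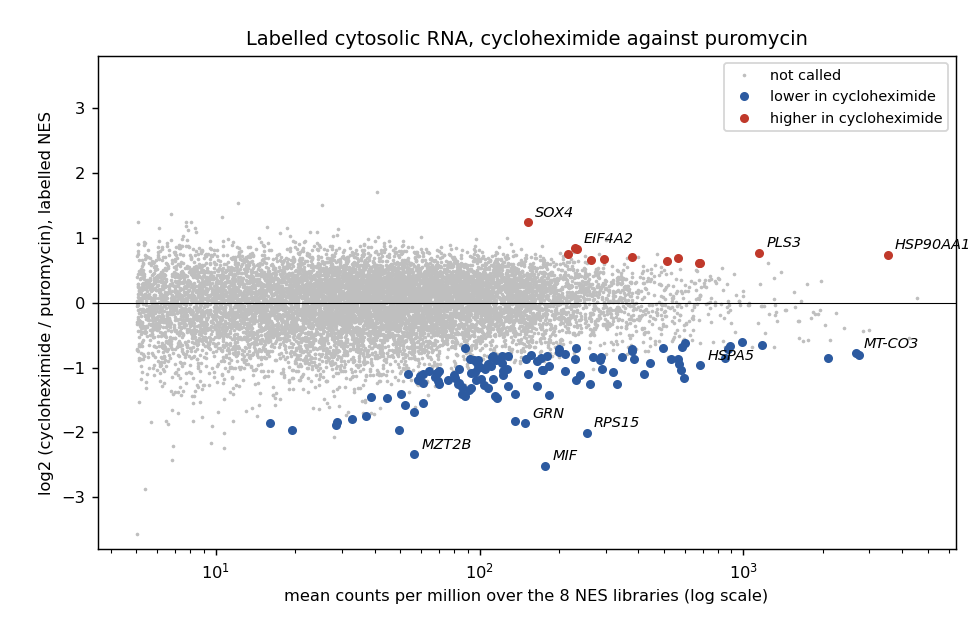
The log2 ratio of cycloheximide to puromycin in the labelled libraries against the mean CPM (log axis), for the 11728 genes that average 5 CPM or more. The 121 lower genes (blue) reach -2.52 for MIF and the 13 higher genes (red) reach 1.24 for SOX4.

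The number of calls changed with the libraries that entered the fit. The fit above takes the spread from all 24 libraries of the drug table, including the unlabelled ones. That table also holds the OMM libraries, and NES and OMM libraries of cells given CCCP, another drug. These entered the fit as well. With the 4 labelled NES libraries alone, 17829 genes passed the filter on low counts. Of these 783 were higher and 1338 lower, 11.9% of the genes tested (6.39% and 10.9% of those of at least 5 CPM), and all 134 genes were again among them. Again with all libraries, leaving out 1 moved the 134 calls to 33 without cycloheximide replicate 2, to 49 without puromycin replicate 1, to 91 without puromycin replicate 2 and to 96 without cycloheximide replicate 1.

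GC content moved with the labelled difference. Over the 10756 protein-coding genes of at least 5 CPM with a sequence, Spearman's rho between GC content and the log2 difference was -0.64, as a description across genes that share the same 4 libraries. From the fifth of genes with the lowest GC content (median 38.7%) to the fifth with the highest (61.8%), the median log2 difference went through 0.35, 0.18, 0.02, -0.18 and -0.43. The fifth with the lowest GC content held 10 of the 13 higher genes and none of the lower ones, and the fifth with the highest held 71 lower genes and no higher one. The unlabelled libraries moved the same way by less (rho -0.21, medians from 0.23 to -0.14). When each library was corrected for a smooth trend with GC content, 26 genes were called, SOX4 (1.30) higher and 25 lower. Of the 121 lower genes 23 were called again, and MT-ND3 and RTRAF were called in addition. The 25 included MIF (-1.86), RPS15 (-1.59), GRN (-1.44), PDIA3 (-1.26), HSPA5 (-1.04), UQCRC1, CTSD, BSG, RPLP1, MT-ND2 and MT-CO3. With the correction and the 4 labelled libraries alone, 222 genes were called, 1.25% of those tested, 64 higher and 158 lower (0.529% and 1.31% of those of at least 5 CPM), and 69 of the 134 genes were among them. The part of GC content in the difference between the drugs was not tested further.

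**Figure D3:**
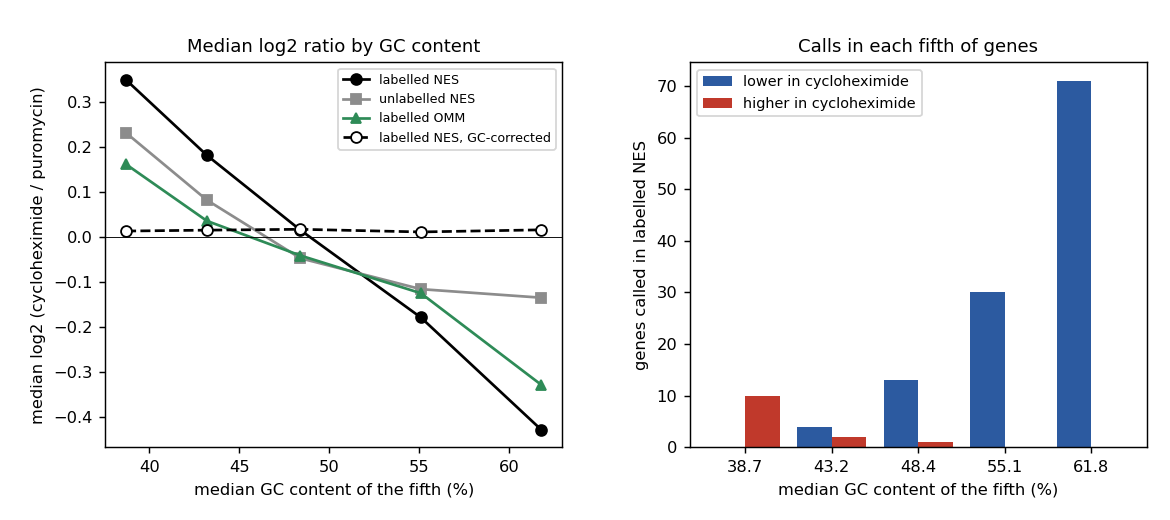
Left, the median log2 ratio of cycloheximide to puromycin in 5 equal groups of protein-coding genes ordered by GC content (percent), for labelled NES, unlabelled NES, labelled OMM and GC-corrected labelled NES. Right, the number of genes called in each group in the labelled NES libraries. The labelled NES median runs from 0.35 to -0.43 and is near 0 in every group after the correction.

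The start of the coding sequence is shown for genes at both ends of the labelled difference. Each line below gives the first 60 coding bases, 5′ to 3′ in the sense of the mRNA, from GENCODE 29 transcripts on GRCh38, with G or C at the third position of a codon in capitals. First come the 3 genes that were lowest in cycloheximide, then the 3 that were highest. In these stretches G or C stands at the third position in 19 of 20 codons in MIF, 18 in MZT2B and 17 in RPS15. The numbers are 17 in SOX4, 8 in RDX and 11 in EIF4A2, so SOX4 was not apart from the lower genes.
MIF: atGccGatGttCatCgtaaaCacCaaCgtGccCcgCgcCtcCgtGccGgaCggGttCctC
MZT2B: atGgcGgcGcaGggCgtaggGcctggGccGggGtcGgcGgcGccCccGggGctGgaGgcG
RPS15: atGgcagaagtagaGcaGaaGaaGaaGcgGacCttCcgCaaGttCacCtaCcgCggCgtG
SOX4: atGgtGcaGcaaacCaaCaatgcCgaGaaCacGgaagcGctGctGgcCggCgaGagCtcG
RDX: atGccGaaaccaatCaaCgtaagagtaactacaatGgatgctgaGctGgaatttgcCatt
EIF4A2: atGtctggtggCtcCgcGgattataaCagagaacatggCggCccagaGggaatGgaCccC
Over the whole coding sequence, G or C stands at the third position in 97.4% of codons in MIF, 86.7% in MZT2B and 93.8% in RPS15, and in 34.1% in RDX and 43.2% in EIF4A2. In SOX4 it is 90.7%. Over the whole transcript, the measure used for the correction above, GC content is 50.7% in SOX4, beside 66.7% in MIF, 67.8% in MZT2B and 61.6% in RPS15. These stretches lie at chr22:23894475-23894534 for MIF, chr2:130182283-130182342 for MZT2B and chr6:21594535-21594594 for SOX4, each in 1 exon on the plus strand. Those of RPS15 (chr19:1438426-1438863, plus strand), RDX (chr11:110272572-110279692, minus strand) and EIF4A2 (chr3:186783611-186784462, plus strand) each span an intron.

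The 3′ untranslated region differed between the called genes too. Its median length was 281 bases in the lower genes, 2428 bases in the higher genes and 1226 bases in all genes of at least 5 CPM. The pentamer ATTTA, the core of AU-rich elements, was counted on the mRNA strand without overlaps. It was present in the 3′ untranslated region of 30.5% of the lower genes, of 12 of the 13 higher genes and of 72.2% of all protein-coding genes of at least 5 CPM. Its rank correlation with the labelled difference was 0.53 across genes as measured and 0.14 after the GC correction. For the length of the whole transcript the rank correlation was 0.39 as measured and 0.26 after the GC correction. The fifth of protein-coding genes with the shortest transcripts (median 1450 bases) held 68 lower genes and 1 higher gene. Its median log2 difference was -0.32, and -0.20 after the GC correction.

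Of 65 tested genes for ER folding, translocation and glycosylation, 9 were lower and 1 was higher, with a median log2 difference of -0.28 beside 0.01 over all genes of at least 5 CPM, of which 1.03% were lower. With the GC correction, 4 were lower and none higher. HSPA5, the main Hsp70 chaperone of the ER (BiP), stood at 338 and 370 CPM in labelled cycloheximide and 726 and 657 CPM in labelled puromycin. Its unlabelled libraries stood at 824 and 964 CPM in cycloheximide and 713 and 894 CPM in puromycin, so the drugs overlapped there and only the labelled groups were apart. The labelled difference was -0.96 ± 0.13 (adjusted p = 0.00161). PDIA3, a disulfide isomerase that folds glycoproteins, stood at 156 and 130 CPM against 329 and 287 CPM, a log2 difference of -1.11 ± 0.17 (adjusted p = 0.00404). The other lower genes of the list were PRKCSH (-1.26), a subunit of the glucosidase that trims glycans, OS9 (-1.02), P4HB (-0.93), RPN1 (-0.88), PDIA4 (-0.84), HSP90B1 (-0.72) and DDOST (-0.70). SPCS3, a subunit of signal peptidase, was the 1 higher gene, at 320 and 288 CPM against 167 and 193 CPM. With the 4 labelled libraries alone, 22 of the 65 genes were lower (33.8%, beside 10.9% of all genes of at least 5 CPM) and 3 were higher. With the GC correction as well, 8 were lower (12.3%, beside 1.31%) and none higher.

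Of 77 genes for secreted proteins, 3 were lower and none higher (beside 1.03% lower of all genes of at least 5 CPM), with a median of -0.51. None of the 77 was called with the GC correction. These were COL6A1 (-1.35) and LAMB2 (-1.20), which build the extracellular matrix, and APP (-0.75). Of 92 genes for plasma membrane proteins, 3 were lower and none higher, with a median of -0.11, and 2 were lower with the GC correction. Among these were BSG (-1.05), the chaperone of lactate transporters, and SLC3A2 (-0.98), the heavy chain of amino acid transporters. GRN, which codes for the secreted and lysosomal protein progranulin and is in none of the lists, stood at 62.1 and 43.1 CPM in labelled cycloheximide and 188 and 193 CPM in labelled puromycin, a log2 difference of -1.86 ± 0.21 (adjusted p = 0.000363). Its unlabelled libraries stood at 169 and 204 CPM in cycloheximide and 184 and 145 CPM in puromycin. The lysosomal protease CTSD was lower as well (-1.40 ± 0.21, adjusted p = 0.00404).

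**Figure D4:**
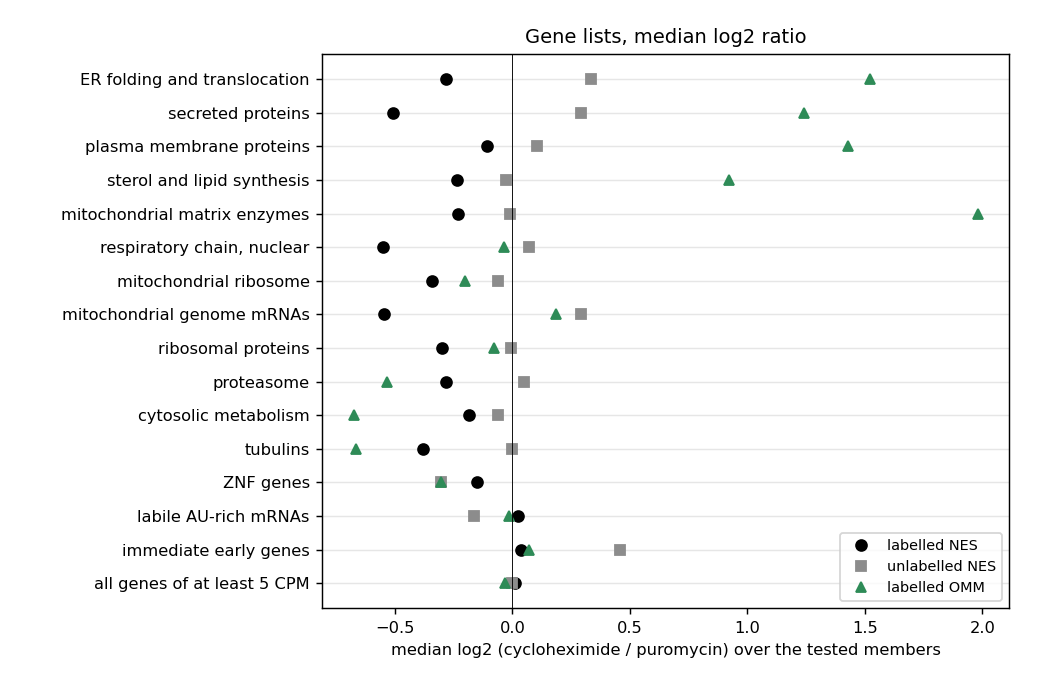
Median log2 ratio of cycloheximide to puromycin over the tested members of 15 gene lists and over all genes of at least 5 CPM, for labelled NES, unlabelled NES and labelled OMM. The ER folding list lies at -0.28 in labelled NES, 0.33 in unlabelled NES and 1.52 in labelled OMM.

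mRNAs for mitochondrial proteins were also among the lower genes. Of 80 nuclear genes for the respiratory chain and ATP synthase, 7 were lower and none higher, with a median of -0.55. UQCRC1, a core protein of complex III, stood at 103 and 94.1 CPM in cycloheximide and 227 and 224 CPM in puromycin, a log2 difference of -1.19 ± 0.17 (adjusted p = 0.0023). The others were ATP5F1D (-1.97), COX8A (-1.44), NDUFB11 (-1.19), COX6B1 (-0.88), SDHA (-0.87) and ATP5F1B (-0.61). Of 94 matrix enzymes, 2 were lower, among them ALDH18A1 (-0.87 ± 0.18, adjusted p = 0.0307), and none was higher, with a median of -0.23. Of 77 mitochondrial ribosome genes, 4 were lower and none higher, with a median of -0.34. Over all genes of at least 5 CPM, 1.03% were lower. With the GC correction and all 24 libraries, 2 respiratory chain genes and no gene of the other 2 lists were lower. On the 4 labelled libraries with the correction, 11 respiratory chain genes (13.8%) and 5 matrix enzymes (5.32%) were lower. So were 2 mitochondrial ribosome genes (2.6%), beside 1.31% of all genes of at least 5 CPM. Of the 13 mRNAs transcribed inside mitochondria, MT-ND2 (-0.85), MT-CO2 (-0.81) and MT-CO3 (-0.78) were lower and none was higher. On the 4 labelled libraries with the GC correction, 5 of the 13 were lower (38.5%) and none higher. MT-CO3 stood at 739 and 613 CPM in labelled cycloheximide against 1175 and 1143 CPM in labelled puromycin. MT-CO1 did not follow: its labelled cycloheximide libraries stood at 2077 and 1279 CPM, on either side of the puromycin libraries at 1555 and 1651 CPM.

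Among cytosolic machines, 5 of 80 ribosomal protein genes were lower and none higher, with a median of -0.30. RPLP1 stood at 146 and 122 CPM in cycloheximide and 247 and 267 CPM in puromycin, a log2 difference of -0.94 ± 0.16 (adjusted p = 0.00776). RPLP2 (-1.08), RPL18 (-0.69) and RPL37A (-0.63) were the others beside RPS15. RPS15 shares sequence with a called pseudogene, AC007969.1 (-1.83), so their counts may be split. Of 34 proteasome genes, 4 were lower and none higher, namely ADRM1 (-1.32), PSMB6 (-1.02), PSMB7 (-0.89) and PSMB5 (-0.83), the last 3 being subunits of the catalytic ring. The median GC content was 49.7% in the ribosomal protein list and 48.5% in the proteasome list, beside 48.2% in all genes of at least 5 CPM. With the GC correction and all 24 libraries, 2 ribosomal protein genes (RPS15 and RPLP1) and no proteasome gene were lower. On the 4 labelled libraries with the correction, 7 ribosomal protein genes (8.75%) and 6 proteasome genes (17.6%) were lower. Of all genes of at least 5 CPM, 1.31% were lower in that fit. The correction covers GC content only, and the part of transcript length in these lists and those above was not tested.

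Lists of short-lived or stress-responsive mRNAs held few calls or none, beside 0.625% called among all genes tested, so that lists of this size say little. Of 37 genes of the integrated stress response, 2 were lower (PHGDH and SLC3A2) and none higher, and of 31 heat shock genes 1 was higher (HSP90AA1) and none lower. Most heat shock genes with an unadjusted p under 0.05 went the other way, 8 lower and 2 higher. In the 4 labelled libraries alone, 8 of the 31 were lower (25.8%, beside 10.9% of all genes of at least 5 CPM) and 2 higher. None was called there with the GC correction. None of 38 replication-dependent histone genes, 24 snoRNA host genes, 53 labile AU-rich mRNAs, 26 p53 targets and 23 NF-kappa-B targets was called by edgeR with all 24 libraries. At an unadjusted p under 0.05 the numbers were 1, 2, 4, 4 and 1, beside 1236 of all 21441 genes. Only 5 of the 38 histone genes averaged at least 5 CPM, so the lack of calls there says little. With the 4 labelled libraries alone, 8 of 52 labile mRNAs were higher and 1 was lower, and 5 of 26 p53 targets were higher and 2 lower, beside 6.39% higher and 10.9% lower of all genes of at least 5 CPM. With the GC correction as well, 3 labile mRNAs (5.77%) and 1 p53 target (3.85%) were higher and none was lower. Of all genes of at least 5 CPM, 0.529% were higher and 1.31% lower there. ARRDC4, an arrestin-like protein of the labile list, stood at 108 and 87.1 CPM in cycloheximide and 27.8 and 31.8 CPM in puromycin (log2 difference 1.71 ± 0.50, adjusted p = 0.192 with all libraries and 1.70 ± 0.12 with the 4). Of 59 immediate early genes only SOX4 was called with all 24 libraries. With the 4 labelled libraries, 4 of 58 were higher and 3 lower, and with the GC correction as well 3 were higher (5.17%) and none lower. JUN, a classical immediate early gene, stood at 197 and 327 CPM against 394 and 323 CPM (adjusted p = 1.0), and ACTB at 939 and 1294 CPM against 1721 and 1552 CPM (-0.55 ± 0.16, adjusted p = 0.163).

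The unlabelled libraries show what the same purification gives without peroxide. There 134 genes were higher and 120 lower in cycloheximide, 1.18% of the genes tested (0.955% higher and 0.81% lower of those of at least 5 CPM), with the wider spread between replicates given above. In 48 of these genes every library of 1 drug was at 0, so their fitted ratios are no measure of size. A fit on the 4 unlabelled libraries alone called none of 14565 genes, where 941 had an unadjusted p under 0.05, while DESeq2 with all libraries called 2702. XK, for example, had 59 and 433 counts in cycloheximide and 0 and 0 in puromycin, at least 189-fold higher when the puromycin group is set to 3 counts in all, while its labelled libraries lay between 8.70 and 10.5 CPM in every case. SOX4 stood at 160 and 149 CPM in unlabelled cycloheximide and 53.2 and 42.3 CPM in unlabelled puromycin (1.70 ± 0.23, adjusted p = 0.00285), so it was higher with and without labelling. EIF4A2 (0.81 ± 0.16, adjusted p = 0.0165) and SPCS3 (1.02 ± 0.17, adjusted p = 0.00725) were higher in the unlabelled libraries too. RPS15 was lower there (-1.03 ± 0.18, adjusted p = 0.00925), as was NDUFAF3 (-1.35 ± 0.24, adjusted p = 0.0087). For GRN (0.18, adjusted p = 0.783) and HSPA5 (0.15, adjusted p = 0.63) no difference was called. The immediate early list had a median of 0.46 and 4 higher calls, among them CYR61, a secreted matricellular protein, at 121 and 45.4 CPM against 11.5 and 18.2 CPM. C1GALT1, an enzyme that extends O-glycans, stood at 26.1 and 19.7 CPM against 2.57 and 3.12 CPM, while PTPN14, a phosphatase, stood at 16.4 and 29.9 CPM against 86.7 and 84.8 CPM.

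Testing the labelled against the unlabelled difference asks whether a gene's drug contrast depends on tagging. It called 7 genes upward and 28 downward, 0.163% of the genes tested (0.0512% and 0.23% of those of at least 5 CPM), and it shares its libraries with both comparisons above. The 5 genes with a group at 0 in every library, XK among them, are left aside here. GRN changed by -2.04 ± 0.29 (adjusted p = 0.0137) and PDIA3 by -1.56 ± 0.24 (adjusted p = 0.0138). HSPA5 changed by -1.12 ± 0.18 (adjusted p = 0.0191). MOGS, the glucosidase that starts glycan trimming, was called in each of the contrasts behind this one, in opposite directions. It stood at 47.2 and 38.2 CPM in labelled cycloheximide against 97.3 and 79.4 CPM in labelled puromycin, and at 77.5 and 91.8 CPM against 40.1 and 41.4 CPM without labelling, a change of -2.10 ± 0.31 (adjusted p = 0.0137). CALR, the calcium-binding chaperone calreticulin, changed by -1.16 ± 0.19 (adjusted p = 0.0191), and BCAP31 (-1.41), COL6A1 (-2.12) and ATP6AP1 (-1.47), a V-ATPase accessory protein, went the same way. In all, 7 of the 65 ER folding genes were called downward and none upward, with a median of -0.67 beside -0.03 over all genes of at least 5 CPM. Both sides entered this change, as the median of the list was -0.28 with labelling and 0.33 without. In the unlabelled libraries 6 of the 65 were higher in cycloheximide and none lower, beside 0.955% and 0.81% of all genes of at least 5 CPM. COPE (-1.47), a subunit of the coat of Golgi vesicles, was called downward as well. Other downward genes were PSMB6 (-1.39), SNRNP70 (-1.15) and MT-CO3 (-1.10). ZMPSTE24, a membrane protease, was called downward (-1.39) with no labelled difference of its own: it stood at 106 and 108 CPM against 89.1 and 105 CPM when labelled and at 206 and 151 CPM against 67.6 and 56.0 CPM when unlabelled. Upward, BAZ1B (1.01), E2F3 (1.31), RNGTT (1.76) and SLC35E2B (1.91) had no labelled call either. A fit on the 8 NES libraries alone called none of 18349 genes, where 1952 had an unadjusted p under 0.05, while DESeq2 with all libraries called 940. Leaving out 1 library gave between 8 calls (without labelled cycloheximide replicate 2) and 485 (without unlabelled cycloheximide replicate 2).

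The same 8 libraries can be read within each drug, labelled against unlabelled, as enrichment by the cytosolic peroxidase. In cycloheximide 1695 genes were enriched and 1666 depleted, 15.7% of the genes tested (12.3% and 14.2% of those of at least 5 CPM). In puromycin 695 were enriched and 982 depleted, 7.82% of the genes tested (4.93% and 8.37% of those of at least 5 CPM). HSPA5 was depleted in cycloheximide (-1.34 ± 0.13, adjusted p = 6.99e-07) and not called in puromycin (-0.22 ± 0.13, adjusted p = 0.328). GRN was depleted in cycloheximide (-1.83 ± 0.21, adjusted p = 3.68e-06) and not called in puromycin (0.21 ± 0.20, adjusted p = 0.558). The test of this difference between the drugs is the one in the preceding paragraph. Of the 65 ER folding genes, 33 were depleted and 2 enriched in cycloheximide (median -0.85), and 9 were depleted and 8 enriched in puromycin (median 0.06). Ribosomal protein mRNAs were depleted under both drugs, 78 of 80 in cycloheximide (median -2.12) and 76 of 80 in puromycin (median -1.79). Mitochondrially encoded mRNAs were depleted under both as well, 12 of 13 and all 13. RDX was enriched under both, by 1.33 ± 0.17 (adjusted p = 1.35e-05) and 0.97 ± 0.17 (adjusted p = 0.000784). Enrichment rose with transcript length under both drugs, with Spearman's rho 0.64 in cycloheximide and 0.57 in puromycin across 10757 genes, as a description.

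The contrast was set beside the same drugs in cells with APEX2 on the OMM, from the same table but with no library in common. There 1124 genes were higher and 418 lower in labelled cycloheximide, 7.19% of the genes tested. Of the 121 genes lower in the cytosol, 36 (29.8%) were higher at the OMM and 48 (39.7%) were lower, which is 3.20% and 11.5% of the OMM lists. Over all genes of at least 5 CPM, 9.58% were higher and 3.56% lower at the OMM. The 36 genes with opposite directions held all 9 lower genes of the ER folding list, as well as GRN, CTSD, BSG, ALDH18A1, UQCRC1, SDHA and ATP5F1B. A rise at the OMM was not particular to these 9: of the 65 ER folding genes, 44 were higher there and none lower, and 64 lay above 0. UQCRC1, lower in the cytosol, stood at 3526 and 3347 CPM in OMM cycloheximide and 250 and 283 CPM in OMM puromycin. ALDH18A1, a matrix enzyme of proline synthesis, stood at 7600 and 7577 CPM against 247 and 262 CPM there, beside 154 and 123 CPM against 259 and 249 CPM in the cytosol. HSPA5 stood at 1756 and 1927 CPM against 593 and 610 CPM at the OMM. None of these overlapped between the drugs in either place. The 48 genes that were lower in both places included MIF, RPS15, SNRNP70 and the 4 lower proteasome genes. Their median GC content was 61.5%, beside 55.9% in the 36 with opposite directions and 48.2% in all genes of at least 5 CPM.

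The test of the difference between the contrasts called 54 genes upward and 714 downward in the cytosol relative to the OMM, 3.58% of the genes tested (0.46% and 6.09% of those of at least 5 CPM). UQCRC1 differed by -4.88 ± 0.25 (adjusted p = 2.85e-10) and ALDH18A1 by -5.77 ± 0.27 (adjusted p = 1.62e-10). HSPA5 differed by -2.58 ± 0.19 (adjusted p = 2.12e-08), PDIA3 by -2.95 ± 0.24 (adjusted p = 1.15e-07) and GRN by -2.72 ± 0.29 (adjusted p = 3.42e-06). Of the matrix enzymes, 50 of 94 were called downward, and of the ER folding genes 39 of 65. SPCS3 was higher in both places, by more at the OMM (difference -1.73 ± 0.24, adjusted p = 0.000101). For RPLP1 the difference between the contrasts was called too ( -0.85 ± 0.22, adjusted p = 0.0346). PLS3, an actin-bundling protein (0.72 ± 0.18, adjusted p = 0.0241), and IARS, isoleucyl-tRNA synthetase (0.92 ± 0.19, adjusted p = 0.00511), differed upward. MIF (-1.02 ± 0.42, adjusted p = 0.377) and SNRNP70 (0.07 ± 0.21, adjusted p = 1.0) were not called. The labelled OMM cycloheximide libraries had scaling factors of 0.781 and 0.765, against 0.958 to 1.085 in the other libraries of the table. Counts are relative within a library, so a rise of some RNAs at a site cannot be told apart from a fall of the rest, nor fewer labelled cells from less RNA per cell.

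**Figure D5:**
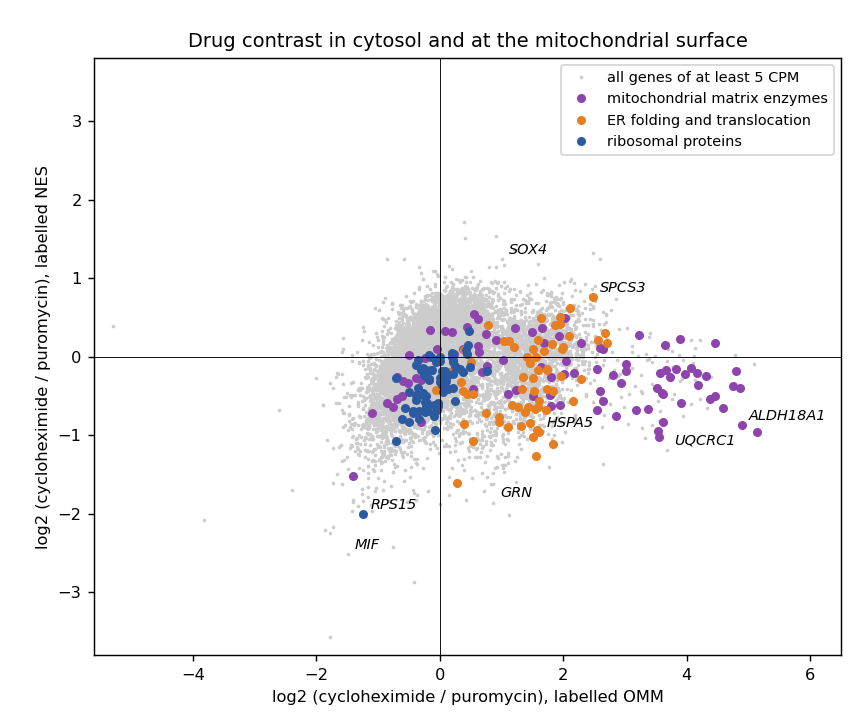
The log2 ratio of cycloheximide to puromycin in labelled NES (vertical) against labelled OMM (horizontal) for the 11728 genes of at least 5 CPM, with 3 gene lists in colour. Matrix enzymes reach beyond 4 at the OMM (ALDH18A1 4.90), and MIF and RPS15 are negative on both axes.

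The first 60 coding bases of 4 genes with opposite directions are shown in the same way as above, because the protein's start is what directs its ribosome to a membrane: HSPA5 and PDIA3 begin with an ER signal peptide, and UQCRC1 and ALDH18A1 with a mitochondrial targeting sequence.
HSPA5: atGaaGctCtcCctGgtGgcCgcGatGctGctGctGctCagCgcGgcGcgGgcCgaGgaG
PDIA3: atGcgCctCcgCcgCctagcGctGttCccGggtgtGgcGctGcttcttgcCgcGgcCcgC
UQCRC1: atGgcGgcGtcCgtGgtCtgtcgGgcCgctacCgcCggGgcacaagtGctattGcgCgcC
ALDH18A1: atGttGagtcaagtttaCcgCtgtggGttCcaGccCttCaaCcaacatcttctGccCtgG
The stretches lie at chr9:125241067-125241126 (HSPA5, minus strand), chr15:43746540-43746599 (PDIA3, plus), chr3:48609561-48609620 (UQCRC1, minus) and chr10:95653318-95653377 (ALDH18A1, minus), each in 1 coding exon. Over the whole coding sequence, G or C stands at the third position in 49.5% of codons in HSPA5, 46.9% in PDIA3 and 54.3% in ALDH18A1, which is below the 57.8% median of all genes of at least 5 CPM. In UQCRC1 it is 66.2%.

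Labelling by a peroxidase on the ER membrane in cells without either drug was set beside the drug contrast. Genes were ranked by the log2 ratio of labelled to unlabelled CPM (0.5 added to each) with APEX2 on the ER membrane in those cells, from a separate table. This ratio is no measure of distance alone: across 10757 genes its Spearman's rho with enrichment by the cytosolic peroxidase was 0.57 in cycloheximide and 0.59 in puromycin. The fifth with the highest ratio had a median labelled drug difference of 0.11 in the cytosol, with 9 genes lower and 2 higher, and the fifth with the lowest ratio -0.26, with 64 lower and 1 higher. At the OMM the fifth with the highest ratio had a median of 0.80. Genes in the fifth with the highest ratio were also compared with the others within each of the 5 groups of GC content. In the group of lowest GC content, their median in the cytosol was 0.355, against 0.349 for the others. With rising GC content it was 0.193 against 0.181, 0.069 against 0.003, -0.046 against -0.202 and -0.25 against -0.47. The gap was thus small at low GC content and widest at the highest.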

How the data were processed

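Poly(A) RNA was sequenced from stranded libraries, per the labels' protocols. The deposited table holds raw read counts per gene, which the authors made with Trimmomatic, STAR and HTSeq on GRCh38, per the submitters' processing notes, without versions. Tests used edgeR 4.0.16 (limma 3.58.1, R 4.3.3) on the 24 libraries of the drug table with 1 mean per group, TMM scaling, filterByExpr, quasi-likelihood tests and Benjamini-Hochberg adjustment over 21441 genes, with a threshold of 0.05. The drug table holds NES and OMM libraries, labelled and unlabelled, under cycloheximide, puromycin or CCCP. DESeq2 1.42.0 was an alternative. The GC correction, chosen after seeing the data, subtracted a lowess fit (span 0.3) of each library on GC content. GENCODE 29 named 57055 of 60675 identifiers. Genes named were the 15 largest changes each way among calls of at least 5 CPM without overlap, up to 6 members per list, and landmarks. ARRDC4 and the genes set beside the OMM were chosen after their values were seen. Members and lists were chosen with earlier results of these data known. CPM values carry the TMM factors. Log2 ratios of untreated cells used plain CPM and a pseudocount of 0.5 CPM. Scripts were tested on simulated data. The bound given for XK covers counting error only. Each ± is a standard error derived from the quasi-likelihood test, which includes the spread between libraries. In the main fit, p-values set each difference against a spread estimated from all 24 libraries, not from the libraries of that contrast alone. Some items are not reported here.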

Additional observations from a re-analysis of the deposited data

Results flagged for a closer look

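The drug difference depended on labelling in 35 genes, by a test of labelled minus unlabelled log2 differences. With no weight given to a cause, the values were -2.04 for GRN, -2.10 for MOGS, -2.12 for COL6A1, -1.555 for PDIA3, -1.12 for HSPA5, -1.16 for CALR, -1.41 for BCAP31, -1.47 for ATP6AP1 and -1.47 for COPE. They were -1.39 for PSMB6, -1.10 for MT-CO3, -1.15 for SNRNP70 and -1.39 for ZMPSTE24, and upward 1.01 for BAZ1B, 1.305 for E2F3, 1.76 for RNGTT and 1.91 for SLC35E2B. None of the 35 was called when the 8 NES libraries were fitted alone with edgeR, where 1952 genes had an unadjusted p under 0.05.

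The drug difference depended on the site of labelling, cytosol minus OMM, in 768 genes. The differences were -2.72 for GRN, -2.58 for HSPA5, -2.95 for PDIA3, -4.88 for UQCRC1, -5.77 for ALDH18A1, -1.73 for SPCS3 and -0.85 for RPLP1, and upward 0.92 for IARS and 0.72 for PLS3.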

How the results depend on the processing

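Each group had 2 libraries, and the parts of depth and replicate number in the precision were not compared. For the labelled contrast (134 calls), the count was 73 with an absolute log2 difference of at least 1, 250 without the filter on low counts, 26 with GC correction, 20 with GC correction and the replicate block, 207 with only genes of at least 5 CPM, 2121 with only its own libraries, 222 with these and GC correction, and 552 with DESeq2. For the unlabelled contrast (254) it was 507 without the filter, 0 with only its own libraries and 2702 with DESeq2. For labelled minus unlabelled (35) it was 110 without the filter, 19 with the replicate block, 0 with only its own libraries and 940 with DESeq2. Labelled against unlabelled gave 5281 calls in cycloheximide with DESeq2, and in puromycin 1091 with the log2 limit, 3281 with only its own libraries (2194 higher and 1087 lower) and 3616 with DESeq2. With only their own libraries the OMM contrast gave 5275 and the cytosol minus OMM contrast 3219, and DESeq2 gave 1255 for the latter. Leaving out 1 library gave 33 to 96 calls (labelled), 133 to 916 (unlabelled), 8 to 485 (labelled minus unlabelled), 2119 to 3213 (cycloheximide), 778 to 1822 (puromycin), 995 to 1054 (OMM) and 574 to 777 (cytosol minus OMM). The lone library left in a group is then assumed to vary like the others. Libraries with the same replicate number share only that number: their deviations correlated at -0.12 (labelled), -0.01 (unlabelled), -0.02 (cycloheximide), -0.04 (puromycin) and -0.07 (OMM). The replicate block gave 123 calls in the labelled contrast and 211 in the unlabelled one, and crossed numbers gave 137 (14 higher and 123 lower) in the labelled contrast. MT-CO1 in the labelled contrast turned to -0.000701 with GC correction and the replicate block and to between -0.31 and 0.37 when 1 library was left out, and HSPA5 in the unlabelled contrast to between -0.00715 and 0.31, the negative values not being called. The causes of these shifts were not tested.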
